A study of Caenorhabditis elegans with 4 samples.

Results

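On the X chromosome, 1473 of 1762 series-wide REC-8 peaks did not meet a peak in both replicate lists, and these 1473 sites are described here. They were chosen by overlap in the authors' own peak lists: a series-wide X peak was kept unless peaks of replicate 1 and of replicate 2 both overlapped it, by 1 bp or more. The whole list holds 7834 peaks, of which 7831 lie on the 6 nuclear chromosomes. The 4865 autosomal peaks picked in the same way serve for comparison, as do the 289 X peaks found in both replicates.

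REC-8 is a kleisin, the subunit that closes the ring of meiotic cohesin around sister chromatids and is cut when they separate. Caenorhabditis elegans chromosomes are holocentric, with kinetochores along their length, and in meiosis cohesin is lost from the chromosome arms in steps set by the position of the crossover. Hermaphrodites carry a pair of X chromosomes, which align and recombine like autosomes but are kept largely silent through much of germline development. On the autosomes genes and crossovers are unevenly spread between a central section and flanking arms, and on X they are spread more evenly.

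Both kinds of sample came from fem-2(b245) hermaphrodites, a strain with a mutation on chromosome III in a gene for a protein phosphatase of the sex determination pathway. The 2 ChIP samples were made with a rabbit polyclonal antibody against REC-8 and the 2 reference samples are input DNA. All 4 carry the same genotype and growth temperature of 20 °C, so the controls carry the mutation too. The stage label is young adult with a germline, while the growth protocol speaks of gravid adults. Worms were pooled from large cultures and ground whole, so germline and somatic nuclei cannot be told apart in the peaks. Whether the 2 replicates were separate cultures is not stated. The input samples have no values of their own here.

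The replicate lists stand apart in length, and 946 of the 1473 sites met a replicate 2 peak and lacked a replicate 1 peak. Replicate 1 holds 381 X peaks of 2001 in all, and replicate 2 holds 1241 of 5347. With the rule applied to replicate 2 only, leaving replicate 1 out, 527 X peaks (29.9%) would be unmatched. With replicate 1 only, leaving replicate 2 out, the number was 1391 (78.9%). Read totals are unknown from peak lists, so the depth behind a missing peak is unknown too, and absence from a list does not show that REC-8 was absent. No genome of the files' build (WS220, ce10) was used, so the sites are given by position, without base sequence or neighbouring genes.

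Of the 1473 peaks, 946 met a replicate 2 peak alone (64.2%), 82 met a replicate 1 peak alone (5.57%) and 445 met neither (30.2%). As a share of all X peaks, those not found in both made up 83.6% (exact 95% interval 81.8 to 85.3, counting error only), against 80.2% of autosomal peaks (79.1 to 81.2). Single autosomes ran from 78.6% on IV to 81.9% on V (79.5 to 84.2), an interval that overlaps that of X. The order depended on the list used. With replicate 1 left out of the rule, the share was 29.9% on X and 32.1% over the autosomes. With replicate 2 left out, it was 78.9% on X and 75.4% over the autosomes. Peaks that met replicate 2 alone were 53.7% of X peaks and 48.0% of autosomal peaks. Those that met replicate 1 alone were 4.65% on X and 4.73% on the autosomes, and those that met neither were 25.3% on X and 27.4% on the autosomes. These shares are what the rule itself counts and carry no test.

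The limit of the rule falls among weak peaks. The unshared X peaks nearest to the limit lay 72, 94 and 102 bp from a peak of the replicate they missed, with series-wide scores of 1.63, 5.01 and 9.48. On the other side, the shared peaks with the smallest overlaps had a smaller overlap of 7, 20 and 25 bp and scored 3.12, 9.75 and 5.92. Few sites are this close to the limit. Among peaks that met replicate 2 alone, 39 of 946 (4.12%) had a replicate 1 peak within 500 bp, and the median gap was 16143 bp. The autosomes gave the same share, 120 of 2916 (4.12%), with a median gap of 16018 bp. Among the 289 shared X peaks, 3 had a smaller overlap of at most 50 bp.

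Averaged over whole sections, the density of these peaks was nearly level along X, although single windows of 250 kb held from 8 to 47 of them. The left arm (midpoints below 6137000) carried 81.3 per Mb (499 peaks), the centre (to 12480000) 81.5 per Mb (517 peaks) and the right arm 87.2 per Mb (457 peaks). The ratio to the centre was 1.00 for the left arm and 1.07 for the right arm. Each of the 10 autosomal arms was sparser than its own centre, at 0.54 to 0.89 times its density. The lowest was the left arm of chromosome II, with 37.5 per Mb against 69.0 in its centre. Autosomes were cut at the same relative positions as X, 34.6% and 70.4% of the extent.

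Both arms together carried 1.03 times the density of the centre on X, against 0.78 on chromosome I, 0.76 on III and IV, 0.70 on II and 0.67 on V. X also lay above all 5 autosomes in the shared peaks, with 1.32 on X and 0.82 to 1.00 on the autosomes, so the order is not particular to the unshared ones. Among the kinds of unshared peak, the ratio for replicate 2 alone was 1.00 on X and 0.49 to 0.65 on the 5 autosomes. For peaks that met neither replicate, X lay within the autosomal range, with 1.06 on X and 0.98 to 1.11 on the autosomes. For those that met replicate 1 alone, the ratio for both arms together was 1.20 on X and 1.16 to 2.35 on the autosomes. Taken alone, the right arm was sparser than the centre on X (0.70) and on chromosome II (0.61). With the rule applied without replicate 1, the ratio was 1.08 on X, below chromosomes III (1.16) and IV (1.17), so X no longer lay above all 5 autosomes. Without replicate 2 it was 1.02 on X, with 0.63 to 0.76 on the autosomes.

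**Figure D1:**
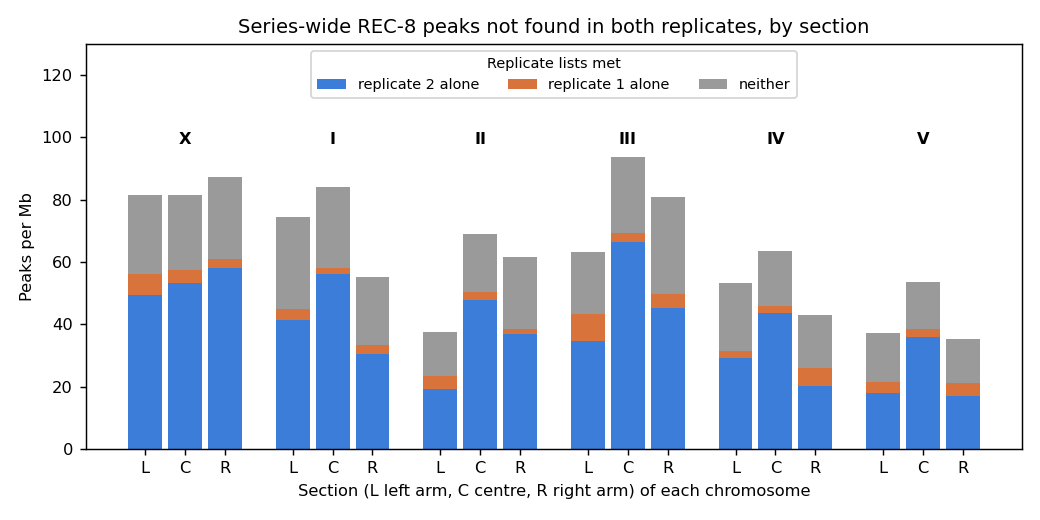
Density of series-wide peaks not found in both replicates, in peaks per Mb, in the left arm (L), centre (C) and right arm (R) of each chromosome, with colours for the replicate lists met. The 3 X bars lie between 81.3 and 87.2, while the centre is the highest bar of each autosome.

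Over its whole length X carried 83.1 such peaks per Mb, against 79.4 on chromosome III, 72.1 on I, 55.9 on II, 53.9 on IV and 42.4 on V, or 58.9 over all autosomes. X was thus first of 6 chromosomes, with III close behind and a ratio of 1.41 to the density over all autosomes. All series-wide peaks, shared or not, gave a similar picture, with 99.4 per Mb on X against 98.2 on III, 90.4 on I and 73.5 over all autosomes, a ratio of 1.35. The order was the same in covered sequence, with 25902 bp per Mb on X against 25204 on III and 17977 over all autosomes. X against 5 autosomes is a comparison of 1 chromosome with 5, for which an exact test over chromosomes could not give a p below 0.167, so its place in the order is given as a description. With replicate 1 left out the ratio was 1.26, and X (29.7 per Mb) lay below III (30.3).

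In windows of 250 kb, X held between 8 and 47 of these peaks, with a median of 20.0 over 70 windows. The coefficient of variation was 31.9% on X and 40.9% to 53.5% on the autosomes. The fullest window ran from 8000001 to 8250000 with 47 peaks and 9 shared peaks. The emptiest ran from 500001 to 750000 with 8 peaks and 2 shared peaks. Across windows the number of unshared peaks and the number of shared peaks on X went together (Spearman's rho 0.54 and Pearson's r 0.54, n = 70 windows). The same rho was 0.26 to 0.41 on the autosomes. Windows of a chromosome share the same peak lists and the same mapping, so these values are descriptions.

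The sites were narrow. Their median width was 266 bp (quartiles 196 and 363), against 610 bp for X peaks found in both replicates and 256 bp for autosomal peaks chosen the same way. The narrowest were 146 bp, a width shared by 25 X peaks and by no X peak found in both. Peaks under 200 bp made up 26.2% of the set (386 peaks), against 1.04% of the shared X peaks. Those of 800 bp or more were 36 (2.44%), against 95 of 289 shared peaks (32.9%). A wider peak meets an overlap of 1 bp more easily, so the lower width is no finding apart from the way the set was chosen. Width hardly differed along X, with medians of 268, 264 and 268 bp in the left arm, centre and right arm.

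Scores are those of the authors' peak caller and are compared within a list only. The median series-wide score of the 1473 peaks was 6.69 (quartiles 4.37 and 11.9), against 42.0 for X peaks found in both and 6.88 for autosomal peaks not found in both. The sections again lay close together, at 7.02 in the left arm, 6.45 in the centre and 6.88 in the right arm. Only 6 of the 1473 reached the median of the shared X peaks, and 5 of the 289 shared peaks fell to the median of the unshared ones. All 3 lists rest on the same 2 ChIP samples, so the lower score is no finding apart from the way the set was chosen. With replicate 1 left out of the rule, the median score of the unshared X peaks was 4.34.

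**Figure D2:**
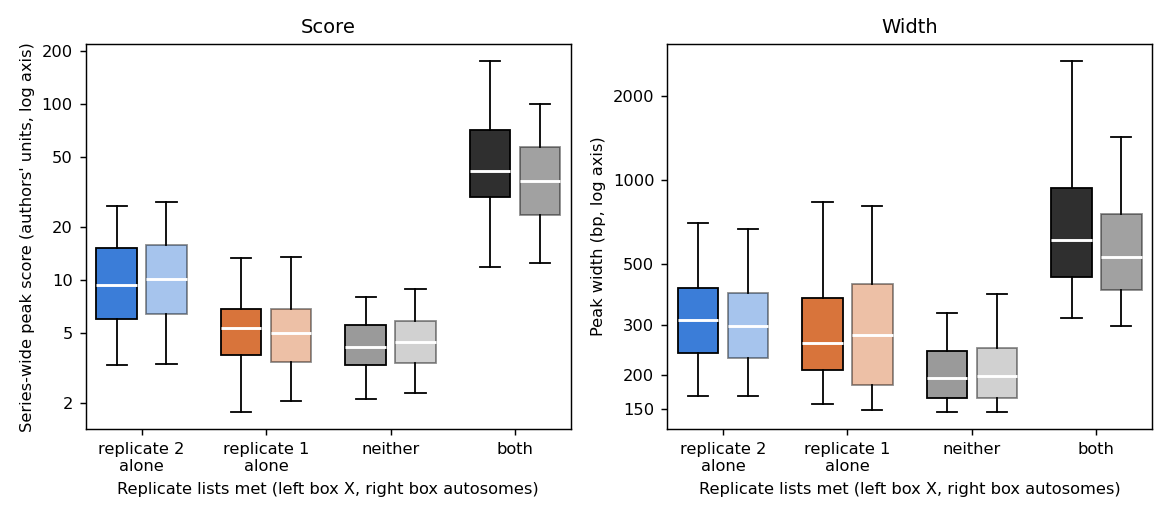
Series-wide score and width of peaks by the replicate lists they met, on log axes; boxes show the quartiles with a white line at the median, whiskers the 5th and 95th percentiles, and each pair has X on the left and the autosomes on the right. On X the median width is 314 bp for replicate 2 alone, 258 bp for replicate 1 alone, 194 bp for neither and 610 bp for both.

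The 3 kinds of peak, set by the same overlap rule, differed in these measures. The median score was 9.43 for replicate 2 alone, 5.36 for replicate 1 alone and 4.19 for neither, and widths followed the same order, at 314, 258 and 194 bp. Of the last kind 53.5% were under 200 bp wide and 0 of 445 reached 800 bp. Their median gap to the next replicate 2 peak was 2630 bp, with 85 of 445 (19.1%) within 500 bp. To the next replicate 1 peak it was 14953 bp, with 26 (5.84%) within 500 bp. Replicate 2 holds 1241 X peaks and replicate 1 holds 381, and a longer list gives shorter gaps by its length alone.

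When all X peaks were ranked by series-wide score and cut into 5 groups of equal size, the lowest group held 351 unshared peaks of 353 (99.4%). The highest group, with scores from 21.4 upward, held 104 of 353 (29.5%), all of them with replicate 2 alone. On the autosomes the highest group held 289 of 1214 (23.8%). In the group below it, unshared peaks were 92.3% on X and 81.3% on the autosomes. In both groups the unshared share was higher on X, but X and the autosomes were cut separately. The 2 X groups began at scores of 10.4 and 21.4, the autosomal ones at 11.6 and 22.6. They are thus not matched by score, and the difference was not tested.

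**Figure D3:**
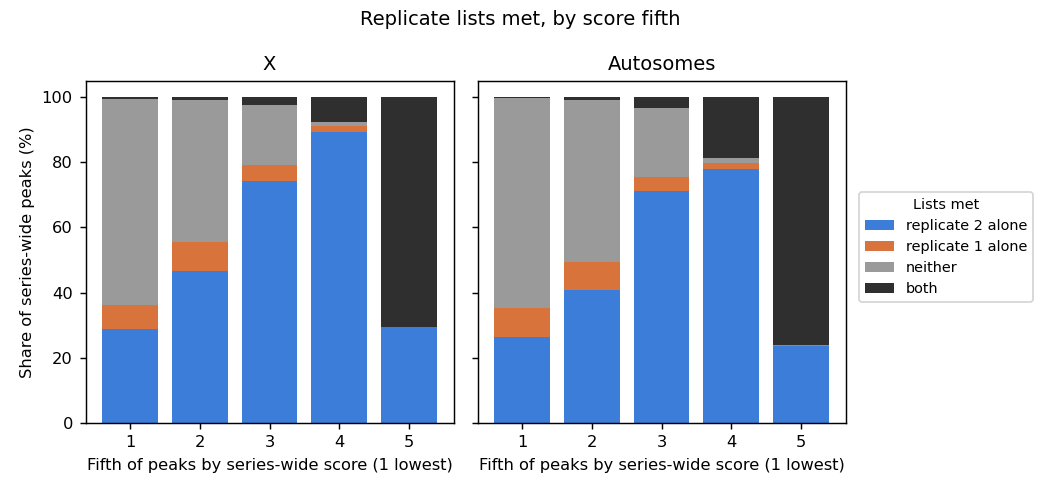
Share of series-wide peaks, in percent, that met replicate 2 alone, replicate 1 alone, neither or both, in 5 groups of equal size from the lowest to the highest series-wide score, on X and on the autosomes. The groups were cut separately on X and on the autosomes. In the highest group replicate 2 alone makes up 29.5% on X, and no X peak of that group met replicate 1 alone or neither list.

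The strongest unshared sites overlapped replicate 2 peaks and lay kilobases from the next replicate 1 peak. The first, in the left arm from 768019 to 768476 (458 bp), had a series-wide score of 75.5, rank 220 of 7831. It overlapped a replicate 2 peak with a score of 963 (rank 244 of 5347), and the next replicate 1 peak lay 16836 bp away. The second, the strongest of the right arm, ran from 15840961 to 15841454 (494 bp) with a score of 64.0. Its replicate 2 peak scored 750 (rank 383), and replicate 1 had nothing within 29662 bp. The strongest of the centre, from 6840856 to 6841171 (316 bp), scored 45.2 in the series-wide list and 367 in replicate 2 (rank 1125), with the next replicate 1 peak 90232 bp away. All 3 thus ranked in the upper part of the replicate 2 list.

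The other 7 of the 10 highest scoring sites were of the same kind. They lay from 1128521 (score 47.6), 5336424 (44.4), 13328843 (42.3), 13977341 (41.4), 9337739 (39.4), 382647 (38.8) and 4214455 (38.2), and all overlapped replicate 2 alone. Replicate 2 scores of these 7 ran from 339 to 577. The nearest replicate 1 peak was between 3416 and 100221 bp away. By section, 5 of the 10 were in the left arm, 2 in the centre and 3 in the right arm. Among the 100 highest, 38 were in the left arm, 27 in the centre and 35 in the right arm. All 1473 were split into 499, 517 and 457 in the same order.

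Over all 946 peaks with replicate 2 alone, the replicate 2 score had a median of 143 (quartiles 90.9 and 255) and reached 3100, a value that 41 replicate 2 peaks share exactly and 1 exceeds. For shared X peaks the median was 669, and for autosomal peaks with replicate 2 alone 133. The median rank in replicate 2 was 54.1% from the top, against 8.42% for shared X peaks, and 43 of the 946 (4.55%) were among its top 10%. Of the 946, 32 lay under a replicate 2 peak that a shared series-wide peak also met, so each adjoins a shared site under a single replicate 2 peak. In all, 911 replicate 2 peaks accounted for the 946, close to 1 for 1 (1.04 on average).

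The 82 peaks that met replicate 1 alone lay under 49 replicate 1 peaks, or 1.67 per replicate 1 peak. The ratio was 1.25 over the autosomes. On X 52 of the 82 (63.4%) lay under a replicate 1 peak that covered 2 or more of them, against 8.25% of the peaks with replicate 2 alone (78 of 946). For replicate 1 alone this share was 45.6% over the autosomes, from 21.1% on IV to 64.4% on III, so it was not particular to X. All 49 replicate 1 peaks had a median width of 528 bp and a median replicate 1 score of 196, and those over shared X sites had 444 bp and 160. The 17 that covered 2 or more had 2315 bp and 713, although a wide peak can cover more sites by its width alone. The other 32 covered 1 site each, so the 52 peaks that share a replicate 1 peak are not independent sites.

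Several of these replicate 1 peaks were among the strongest of their list and met no replicate 2 peak. One in the left arm, from 109418 to 114349 (4932 bp), scored 3128 in replicate 1, rank 2 of 2001. It covered 5 series-wide peaks with scores from 1.58 to 9.30. In the right arm, a replicate 1 peak from 15807004 to 15811298 (4295 bp, score 1474, rank 101) covered 3 series-wide peaks with scores from 1.43 to 6.87. In the centre, adjoining replicate 1 peaks ran from 10360919 to 10365507 (4589 bp) and from 10365525 to 10369161 (3637 bp). They scored 555 (rank 284) and 967 (rank 157) and covered 4 series-wide peaks each. These replicate 1 peaks were named after their values were seen. Within the replicate 1 list they ranked from 2 to 284 of 2001. Within the series-wide list, the peaks under them scored 9.30 at most, against a median of 42.0 for shared X peaks. All X peaks with replicate 1 alone had a low median series-wide score (5.36), which is no finding apart from the way the set was chosen. The cause was not tested.

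**Figure D4:**
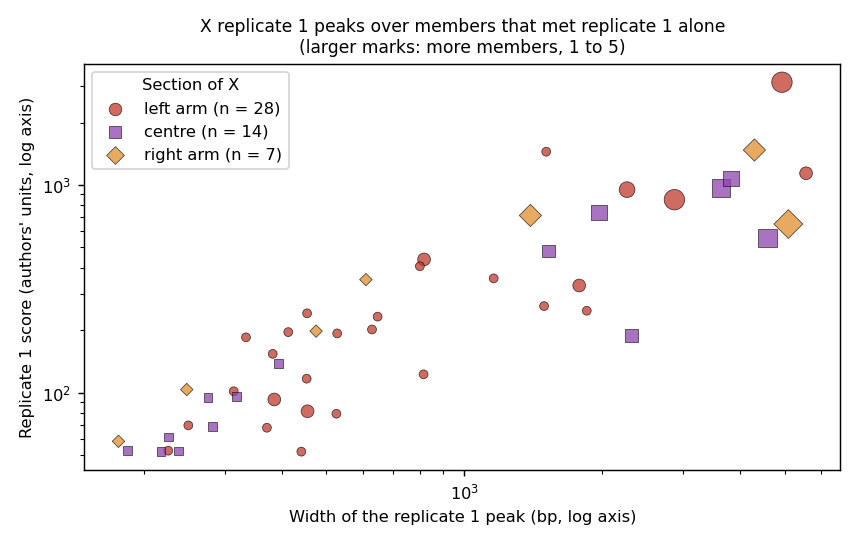
The 49 X replicate 1 peaks over series-wide peaks that met replicate 1 alone, by width in bp and replicate 1 score, on log axes; colour and shape give the section, and larger marks cover more series-wide peaks. The 18 peaks of 1000 bp or more have a median score of 725, against 101 for the 31 narrower ones.

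Of the 49 replicate 1 peaks, 48 met no replicate 2 peak, and 8 were in the top 10% of the replicate 1 list. Counted by series-wide peak, 26 of the 82 (32%) lay under a peak of that top 10%, against 52 of 289 shared X peaks (18%). That count repeats a replicate 1 peak for each series-wide peak under it. Shared X sites were not counted by replicate 1 peak, so the 8 of 49 has no matched comparison and marks no feature of this kind. By section, 28 of the 49 were in the left arm, 14 in the centre and 7 in the right arm. The series-wide peaks under them followed, with 41, 26 and 15 (6.68, 4.10 and 2.86 per Mb). All 381 X replicate 1 peaks were not counted by section, so the unevenness may be that of the list. Autosomal arms were uneven for this kind too, at 0.61 (II right arm) to 3.03 (III left arm) times their centre. Grouping the series-wide peaks of this kind within 10 kb of each other left 32 places on X, of which 12 held 1 peak and the fullest held 8. The best scoring member of this kind, from 3075333 to 3075779 in the left arm, had a series-wide score of 19.3 and a replicate 1 score of 241, and the next replicate 2 peak lay 13681 bp away. The widest member of any kind was also of this kind, from 291995 to 295163 (3169 bp, series-wide score 6.33, replicate 1 score 1139).

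Among peaks that met neither replicate, the highest score was 12.7, at a site in the centre from 8355459 to 8355641 (183 bp). Replicate 2 had a peak 716 bp away and replicate 1 none within 48490 bp. The lowest score of the set, 1.33, belonged to a site of this kind in the left arm, from 2062534 to 2063009, with a replicate 1 peak 284 bp away. It was named after its value was seen. Density of this kind was nearly level along X, with 25.3, 24.1 and 26.2 per Mb from the left arm to the right.

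Most unshared sites did not border a shared site. The median midpoint distance to the nearest X peak found in both replicates was 18848 bp (quartiles 5628 and 43434). Within 1 kb lay 60 of 1473 (4.07%, 3.12 to 5.21), within 10 kb 498 (33.8%, 31.4 to 36.3) and within 100 kb 1365 (92.7%, 91.2 to 93.9). The autosomal median was 19013 bp, between 15575 bp on chromosome III and 34976 bp on V, so X held a middle place. With replicate 1 left out of the rule, the X median was 4301 bp, against 5658 bp over the autosomes. The shared X peaks themselves lay a median of 11822 bp from the nearest other shared peak.

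The distance differed along X more than density, width or score did. Its median was 20529 bp in the left arm, 24816 bp in the centre and 13242 bp in the right arm. Within 10 kb of a shared site lay 44.2% (39.6 to 48.9) of the right arm peaks, against 28.6% (24.8 to 32.7) in the centre and 29.7% (25.7 to 33.9) in the left arm. The intervals treat peaks as independent. Density of the shared sites moved with it, at 15.2, 13.6 and 21.0 per Mb in the left arm, centre and right arm, and its part in the distances was not tested. The left arm of X had the longest tail, with 84.0% within 100 kb, against 95.6% in the centre and 98.9% in the right arm. A difference between sections was not particular to X. From left arm to right arm, the medians were 36633, 17896 and 18306 bp on II, and 32308, 28822 and 63142 bp on V. They lay closer together on I (15189, 15606 and 20069 bp), III (17146, 14289 and 17024 bp) and IV (19839, 19936 and 13373 bp).

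**Figure D5:**
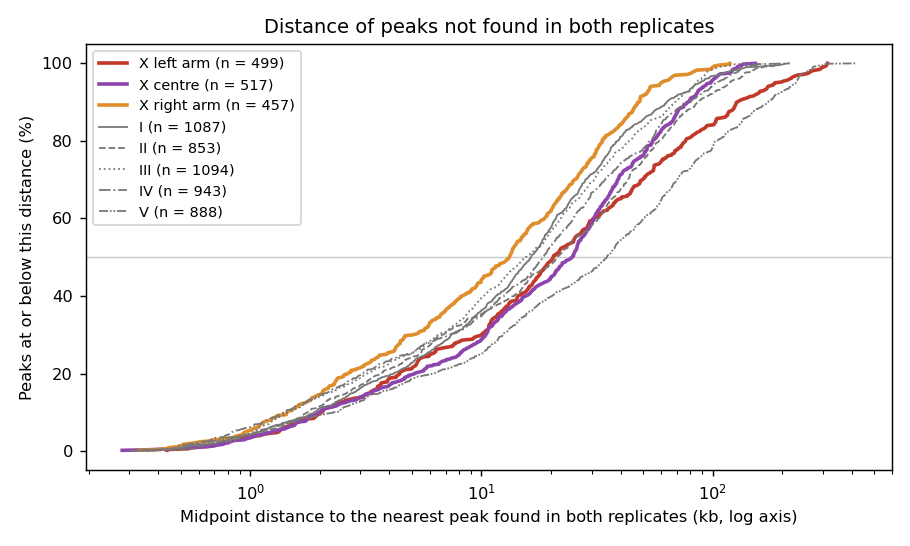
Cumulative share, in percent, of peaks not found in both replicates by midpoint distance in kb, on a log axis, to the nearest peak of their chromosome found in both, for the 3 sections of X and for each autosome. The right arm curve of X lies to the left of the other X curves, with a median of 13242 bp, and the left arm curve ends farthest to the right of them.

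The left arm also held the longest stretch of X without a shared peak, of 639 kb, from 4789240 to 5428557, with 54 unshared peaks (84.5 per Mb). Of the 54, 40 met replicate 2 alone, 5 replicate 1 alone and 9 neither, and their scores reached 44.4 with a median of 7.88. It holds the site farthest from any shared peak, from 5115131 to 5115287 (157 bp, score 3.90), 314300 bp away. Among the 6 chromosomes a longer stretch between shared peaks was found on V (926 kb), with 17 unshared peaks (18.4 per Mb). The next on X, from 3606121 to 3945637 (340 kb), held 36 unshared peaks, or 106 per Mb. The farthest sites of the other sections were nearer, 153 kb in the centre (from 6902918 to 6903231, score 15.0) and 119 kb in the right arm (from 15860561 to 15860900, score 14.0).

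Shared peaks divided X into 290 stretches with a median length of 36765 bp. They held a median of 3.00 unshared peaks, 55 held none (19.0%) and 45 held 10 or more. Those 45 took up 707 of the 1473 (48.0%), against 34.1% on chromosome II and 54.3% on V, which were the lowest and highest autosomal shares. Neighbouring unshared peaks on X had a median midpoint distance of 5042 bp, and 254 of 1472 neighbour pairs (17.3%) were under 1 kb apart. The autosomes ranged from 14.9% to 20.0%.

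Score varied little with distance to a shared site. On X the median was 5.27 within 1 kb (60 peaks), 5.50 from 1 to 2 kb (104 peaks), 6.49 from 2 to 5 kb (178 peaks) and 7.27 from 20 to 50 kb (404 peaks). On the autosomes it was 5.29 within 1 kb (226 peaks) and 7.19 from 20 to 50 kb (1237 peaks). Peaks next to a shared site were thus the weakest of these bands on both, by a small amount relative to the quartiles within a band (4.65 and 12.6 from 20 to 50 kb on X). By kind, the median distance on X was 18756 bp for replicate 2 alone, 17020 bp for neither and 30376 bp for replicate 1 alone. The last rests on 82 peaks in 32 places, with 48455, 14342 and 28434 bp from left arm to right arm. In the centre it was below the 23482 bp of replicate 2 alone. Replicate 1 alone also lay farther than replicate 2 alone on II, III and V. It did not on I (16322 against 16591 bp) or IV (11728 against 18884 bp).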

How the data were processed

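Single-end ChIP-seq libraries were prepared after crosslinking with EGS for 20 minutes and EGS plus formaldehyde for 10 minutes, with 5 µg of antibody, per the labels' protocols. The submitters' processing notes list BWA and ce10, and WS220 of WormBase is the build per the file headers. Aligner version, filters on reads and any use of input are not given in the sources here. Peaks were called by MACS in each ChIP sample and by MACS v2 for the series-wide list, per the file headers and source columns. How the replicates were combined is not stated, and callers or settings that differ can alone change overlap. The score of each peak is as deposited by the authors, with no stated meaning; scores were compared within a list.

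The members, sections and measures were chosen with earlier results of these data known. Peaks were placed by midpoint, a chromosome was taken to end where its last deposited peak ends (17718728 on X), and 3 mitochondrial peaks were left out. Shares have exact Clopper-Pearson 95% intervals, for counting error only and treating peaks as independent. The depth per sample is unknown. No test was made: the rule uses both ChIP samples, and 6 chromosomes allow none past 0.05. Named peaks are the 10 highest scoring, the highest of each section and of each kind, the widest, the farthest in each section and those at the limit of the rule. Stricter and looser overlap, a score minimum, merged peaks, other section limits and each replicate list left out were tried as alternatives. Overlap and distance functions were checked on made-up lists with known answers. Scripts ran under Python 3.11.15 with pandas 2.3.3, NumPy 2.4.6, matplotlib 3.10.9 and SciPy 1.17.1.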

Additional observations from a re-analysis of the deposited data

How the results depend on the processing

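The ratio of right arm to centre density (1.03 to 1.15 over 7 alternatives) stayed within the counting interval of its value, 0.94 to 1.22. The share of X peaks not found in both replicates was 87.9% with a reciprocal overlap of 50%, 66.3% among peaks at or above the median score, 80.2% after merging peaks under 1 kb apart, and 29.9% to 78.9% with 1 replicate list left out. Median distance to a shared peak was 25002, 20942 and 23774 bp under the first 3 of these and 4301 to 16614 bp with 1 list left out. Leaving out a list gave 1.26 to 1.42 for the X to autosome density ratio and 0.96 to 1.13 for the left arm to centre ratio. Fewer peaks count as shared under the stricter overlap, and fewer as unshared with 1 list, by construction; other causes were not tested. Both arms together carried 1.02 to 1.12 times the density of the centre on X over the 8 settings. The counting intervals of the single-arm ratios (0.88 to 1.13 left, 0.94 to 1.22 right) include 1. In the ratio for both arms, X exceeded 5 of 5 autosomes in all settings except without replicate 1, where it exceeded 3. Median width and score moved under 3 of 6 alternatives each. No paired analysis was possible because the input samples enter no comparison. Read totals, which limit how weak a peak can be called, are unknown.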

Other observations

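Some X peaks of the replicate lists met no series-wide peak and so enter no count above. They were 19 of 381 replicate 1 peaks (4.99%) and 73 of 1241 replicate 2 peaks (5.88%), against 9.38% and 5.14% on the autosomes. Their median scores were 80.3 in replicate 1 and 64.5 in replicate 2, against 167 and 172 for X peaks of those lists that did meet one. The strongest, a replicate 1 peak from 9438464 to 9439259 (796 bp), scored 179.

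Replicate 1 held 52 X peaks of 1000 bp or more. Of these, 20 met no replicate 2 peak (median replicate 1 score 602) and 32 met at least 1 (median 3100). In the whole replicate 1 list 34 peaks score exactly 3100 and 2 score more, so that median lies at an apparent upper limit of the score.

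The longest distance between the midpoints of neighbouring unshared X peaks was 129958 bp, between sites ending at 6934647 and starting at 7064420, with 0 shared peaks in between. Autosomal maxima ran from 155378 bp on chromosome II to 471872 bp on V.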
